A study of Mus musculus with 34 samples.

Results

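CD4+ spleen cells of the inbred mouse strain 129X1/SvJ were compared with those of 4 other strains, A/J, Balb/c, C57BL/6J and DBA/2J, without stimulation. The comparison used the 17 unstimulated arrays (T0) of a series of 34, taken by their strain and time labels. These were 3 arrays of 129X1/SvJ against 14 of the other strains (4 of A/J, 3 of Balb/c, 4 of C57BL/6J and 3 of DBA/2J). Earlier results of these data were known when the comparison and the gene lists were chosen. All mice were female and 8 weeks old, and the labels call the replicates biological. Spleen cells were selected with magnetic beads against CD4, placed in serum-containing medium and divided, and a portion was left unstimulated. The other portion (T1) received 10 ng/ml phorbol 12-myristate 13-acetate (PMA) and 1 uM ionomycin for 4 h, drugs that bypass the T cell receptor by activating protein kinase C and raising cell calcium. The protocol's wording leaves unclear whether the T0 cells, labelled as basal, were cultured for the same hours. The labels name no engineered allele in any strain. The sets of replicate numbers differ between strains (for example, DBA/2J has no replicate 1), and the labels do not say what a number stands for.

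CD4 marks helper and regulatory T cells, which direct other immune cells through the cytokines they release. Helper T cells of the type 2 class are driven by interleukin 4 (IL-4) acting through its receptor and the transcription factor GATA3, and they make IL-4 and IL-13. Cytokine receptors of this family signal through Janus kinases and STAT factors, and the CISH and SOCS proteins are induced by that signal and restrain it. Inbred strains carry fixed sequence differences, so a transcript can be present in one strain and nearly absent in another.

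Each value is a log2 intensity of 1 Affymetrix probe set per gene, so a difference of 1 is a doubling of signal. Sequence differences between strains within the probes were not examined, and their part in any difference of signal was not tested. The fit took genes with at least 1 of the 5 strain means at T0 at or above 5.32, the median of all T0 values, and these were 10825 of 19938 genes. A mean below 5.32 is not shown to lie above background, and no fold is given against it. Differences are the 129X1/SvJ mean minus the mean of the 4 other strain means, with the standard error (SE) and the Benjamini-Hochberg adjusted p of the limma fit over those 10825 genes. Genes with an adjusted p under 0.05 are the ones called. Over the genes kept, pairs of arrays correlated at 0.974 to 0.992 within a strain and at 0.942 to 0.986 between strains. The 3 arrays of 129X1/SvJ correlated at 0.984 to 0.988 with each other.

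Of the 10825 genes, 1351 (12.5%) were called. Of these, 610 (5.64%) were higher and 741 (6.85%) were lower in 129X1/SvJ, and 2587 had an unadjusted p under 0.05. A difference of at least 1 log2 was called for 158 genes (1.46%), 53 higher and 105 lower. All 3 arrays of 129X1/SvJ lay above all 14 others for 171 genes (1.58%) and below all of them for 259 genes (2.39%). The number of calls depended on single arrays of the 3. It fell to 829 without 129X1/SvJ replicate 4, 800 of them among the 1351. The number of higher genes was 355 without replicate 1 and 316 without replicate 4, and the number of lower genes was 412 without replicate 2. Against single strains, which share the 129X1/SvJ arrays, 1583 genes (14.6%) were called against A/J, 1173 (10.8%) against Balb/c, 1436 (13.3%) against C57BL/6J and 554 (5.12%) against DBA/2J. The last number was 364 without DBA/2J replicate 4.

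**Figure D1:**
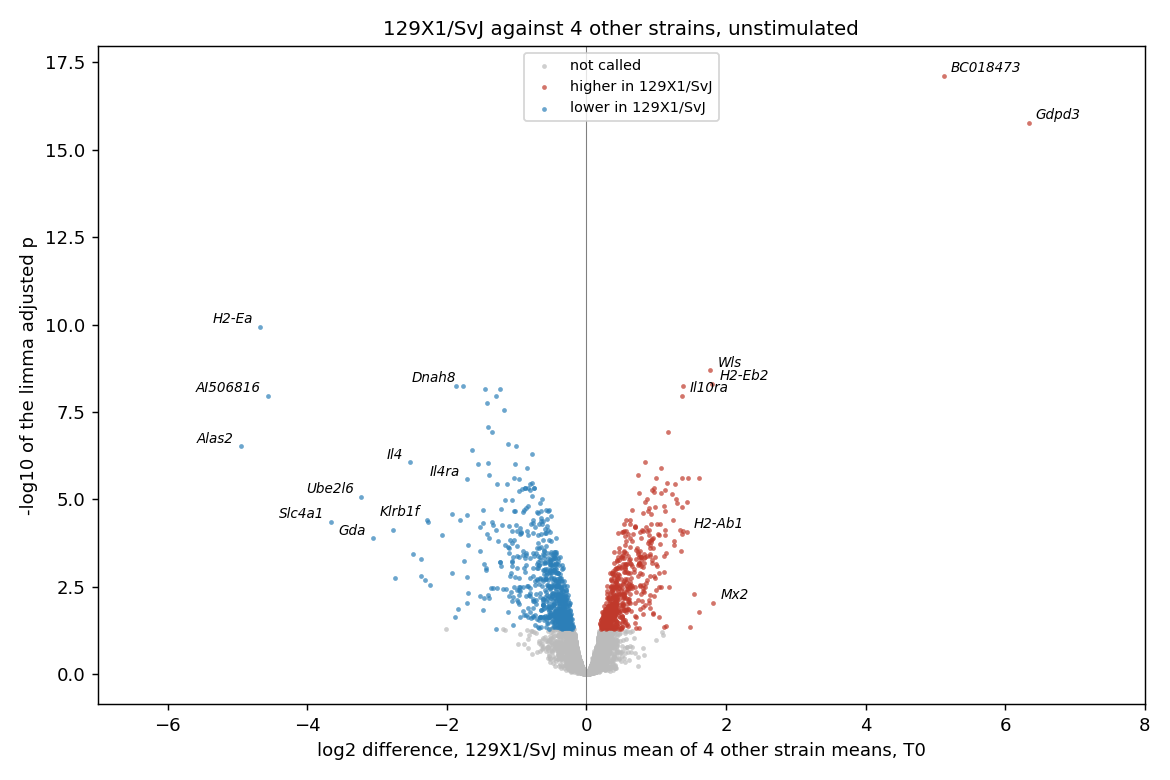
Each of the 10825 genes kept is a point, with the log2 difference (129X1/SvJ minus the mean of 4 other strain means at T0) on the x axis and -log10 of the limma adjusted p on the y axis. The 610 genes called higher are red and the 741 called lower are blue; Gdpd3 at 6.33 and BC018473 at 5.12 lie farthest to the right, each measured against values under the background limit in the other strains.

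Gdpd3 was high in 129X1/SvJ and under the background limit elsewhere. It encodes a membrane enzyme of the glycerophosphodiester phosphodiesterase family that acts on lysophospholipids. Its 129X1/SvJ arrays read 10.95, 11.21 and 10.77, whereas the other 14 ran from 4.30 through a median of 4.56 to 5.01. Every array of the other strains was therefore under the background limit, and no array of 129X1/SvJ came near it. The difference was 6.33 (SE 0.12, adjusted p = 1.66e-16), and it was between 6.11 and 6.59 against each strain taken singly. The adjacent genes kept on the chromosome did not share it: Coro1a differed by 0.14 (adjusted p = 0.458) and Ypel3 by 0.05 (adjusted p = 0.817). Of the 17 genes kept from a list of phosphodiesterases and lysophospholipid enzymes, 3 were called higher and 1 lower (23.5%, beside 12.5% over all genes). The median difference was 0.02 beside 0.01 over all genes, and 1 was higher without 129X1/SvJ replicate 4.

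The same held for a second transcript. BC018473, a transcript of no known function that was named after its values were seen, read 9.18, 9.03 and 9.04 in 129X1/SvJ and between 3.81 and 4.17 in the other 14 arrays. Its difference was 5.12 (SE 0.07, adjusted p = 7.67e-18). It lies between 2 sialyltransferase genes that were higher as well, St6galnac2 with a difference of 0.99 (SE 0.11, adjusted p = 1.69e-05) and St6galnac1 with 1.44 (SE 0.16, adjusted p = 1.16e-05). Both enzymes add sialic acid to O-linked glycans. For each of these 3 neighbours, all 129X1/SvJ arrays lay above all others. The opposite pattern was held by AI506816, another transcript of unknown function named after its values were seen. It read 1.96, 2.26 and 3.37 in 129X1/SvJ, below the background limit, and 4.43 to 9.66 with a median of 7.02 elsewhere (difference -4.56, SE 0.28, adjusted p = 1.08e-08).

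Wls, the carrier that takes Wnt proteins to the cell surface, read 7.69, 7.76 and 7.87 in 129X1/SvJ against 5.73 to 6.38 elsewhere, with a median of 6.01. The difference of 1.77 (SE 0.09, adjusted p = 2.04e-09) is 3.42-fold. Il10ra, the ligand-binding chain of the receptor for the inhibitory cytokine IL-10, read 8.68, 8.80 and 8.79 against 7.12 to 7.73, a difference of 1.37 (SE 0.08, adjusted p = 1.08e-08) or 2.59-fold. The spread of the 129X1/SvJ arrays was small in both genes (SD 0.09 and 0.07). Other genes with all 3 arrays above all 14 others were Rcbtb2 (difference 1.38), Dnajc15, a mitochondrial chaperone (1.45), Cyp39a1, an oxysterol hydroxylase (1.30), Prkag2, a regulatory subunit of AMP-activated kinase (1.28), and Il9r, the receptor of IL-9 (1.15). The other strains differed in pattern among these genes. In Prkag2 the 4 other strain means lay between 6.25 and 6.42 and 129X1/SvJ stood alone at 7.64, whereas in Dnajc15 C57BL/6J at 7.47 lay close to 129X1/SvJ at 7.83 (adjusted p = 0.17 for that pair).

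**Figure D2:**
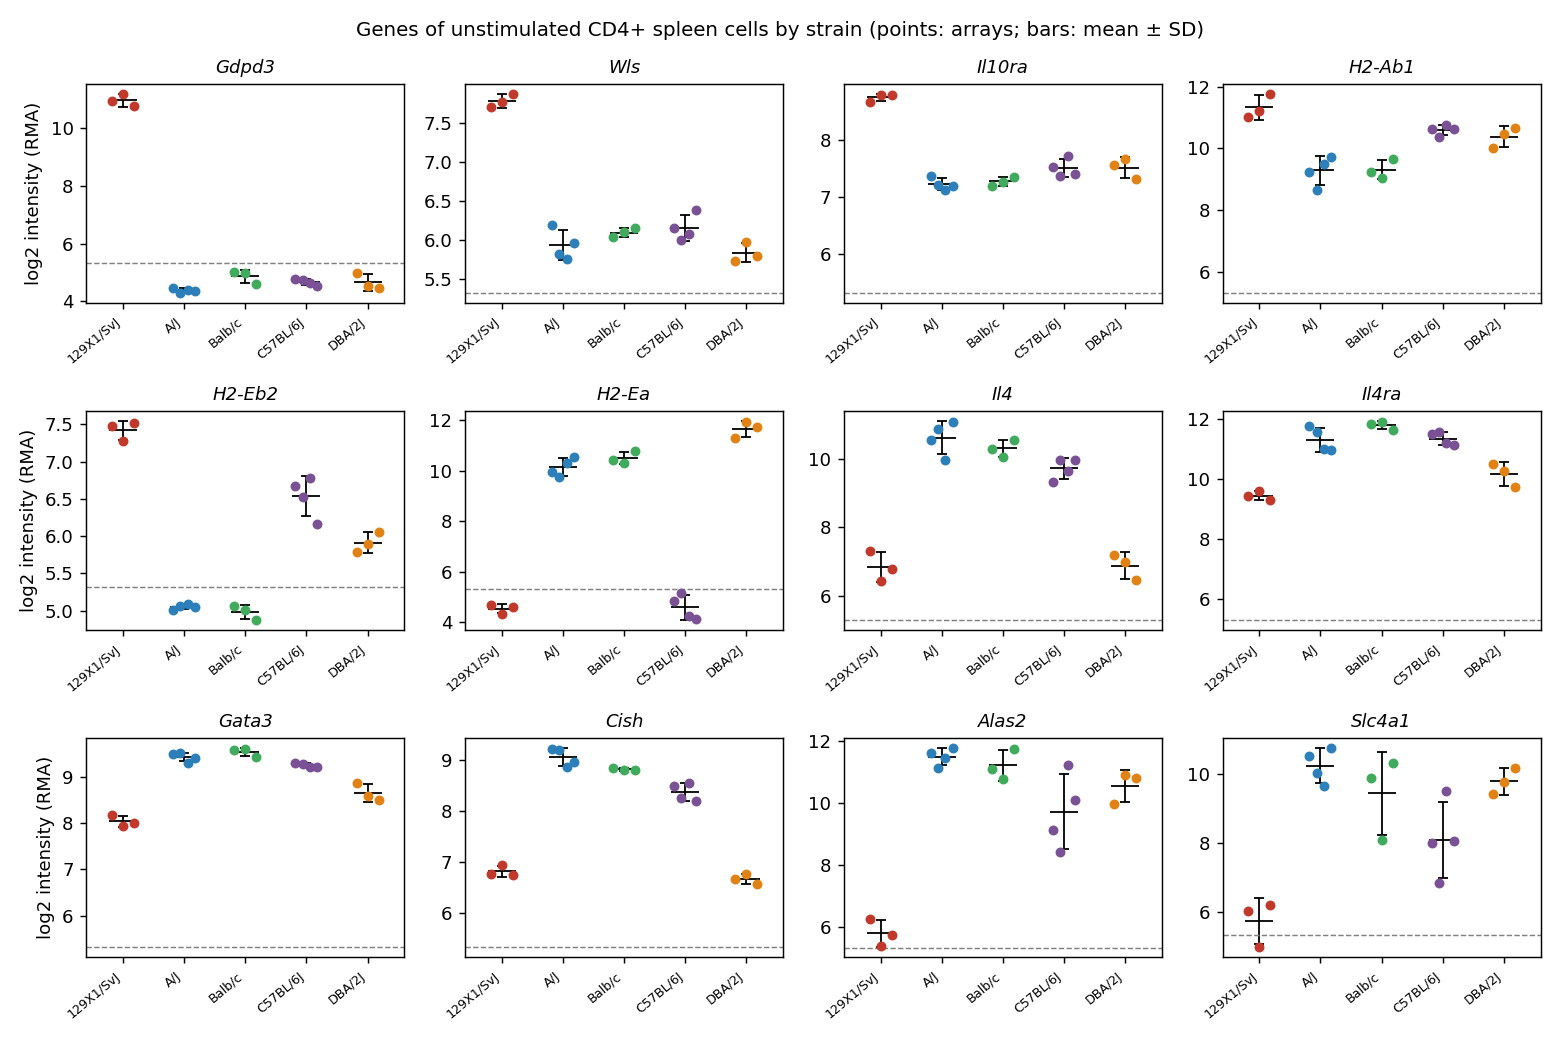
Log2 intensity (y axis) of 12 genes in the 17 unstimulated arrays by strain (x axis); points are arrays, black bars are the mean ± SD and the dashed line is the background limit of 5.32. The 3 arrays of 129X1/SvJ stand above all others for Gdpd3, Wls, Il10ra, H2-Ab1 and H2-Eb2, below all others for Il4ra, Gata3, Alas2 and Slc4a1, beside C57BL/6J for H2-Ea, and beside DBA/2J for Il4 and Cish.

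Transcripts of red cell precursors were lower in 129X1/SvJ. Of 21 erythroid genes listed, 14 were kept, and 12 of these 14 were called lower and none higher (85.7%, beside 6.85% lower over all genes). The median difference was -2.19 beside 0.01 over all genes. Alas2, the erythroid enzyme that begins haem synthesis, read 6.27, 5.40 and 5.74 in 129X1/SvJ and 8.42 to 11.78 in the other 14 arrays, with a median of 11.01. No array overlapped, and the difference was -4.95 (SE 0.39, adjusted p = 3.03e-07), a 30.8-fold lower signal. Slc4a1, the anion exchanger of the red cell membrane, read 6.03, 4.99 and 6.20 against 6.83 to 10.76 (difference -3.65, SE 0.46, adjusted p = 4.27e-05). Fech, which inserts iron into haem, differed by -2.07, and the membrane protein gene Epb42 by -2.37, each with no overlap. Rhag and Rhd, the Rh proteins of the red cell surface, Trim10 and the carbonic anhydrase gene Car2 were called lower by -2.75, -2.37, -2.49 and -2.32, with 1 of the 3 arrays of 129X1/SvJ reaching into the range of the others. Gata1, the erythroid transcription factor, read 5.04, 4.97 and 4.72, under the background limit, against 5.57 to 6.84.

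The other strains were not alike in these genes. The erythroid score, the mean of the 14 genes minus its mean over the 17 arrays, was -1.75, -1.91 and -1.38 in 129X1/SvJ. It ran from -1.18 to 0.43 in C57BL/6J, from -0.58 to 1.18 in Balb/c, from 0.21 to 0.77 in DBA/2J and from 0.64 to 1.63 in A/J. Alas2 had means of 9.73 in C57BL/6J, 10.56 in DBA/2J, 11.22 in Balb/c and 11.50 in A/J, so that C57BL/6J lay nearest to 129X1/SvJ. Of the 14 erythroid genes, 6 had a 129X1/SvJ mean under the background limit: Rhag, Rhd, Epb42, Gata1, Add2 and Trim10. As these are bulk samples, fewer cells of a type and less RNA per cell cannot be told apart, here or in later gene groups.

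Several of the most reduced genes outside that list had the same order of strains, with A/J highest and C57BL/6J lowest of the 4. Ube2l6, the enzyme that conjugates the ubiquitin-like protein ISG15, read 5.56, 5.41 and 5.44 in 129X1/SvJ against 6.93 to 9.90 elsewhere (difference -3.23, SE 0.34, adjusted p = 8.43e-06). Gda, guanine deaminase, differed by -3.05, Aldh1a1, a retinaldehyde dehydrogenase, by -2.77, Bpgm, which makes the red cell regulator bisphosphoglycerate, by -2.27, and Prxl2a by -1.76. All 3 arrays of 129X1/SvJ lay below all 14 others in each. For Aldh1a1 the 129X1/SvJ mean was under the background limit. Ypel4, the neighbour of Ube2l6, differed by -1.15 (SE 0.24, adjusted p = 0.00367), also with no overlap. Gpx1, a glutathione peroxidase, differed by -1.04 (adjusted p = 0.0032). The interferon-inducible genes Rsad2 (-1.69, adjusted p = 0.00475) and Isg20 (-1.28, adjusted p = 0.00347) also had A/J as the highest and C57BL/6J as the lowest of the 4 strains. So did the mitotic spindle gene Nusap1 (-1.05, adjusted p = 0.00627, and 0.053 without 129X1/SvJ replicate 2), whose 129X1/SvJ mean was under the background limit. The mean erythroid score also had A/J highest and C57BL/6J lowest of the 4. Its relation to these genes across arrays and its part in their differences were not tested.

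The start regions of 3 reduced genes, from RefSeq, are shown because they hold letters of motifs named for factors of their groups: Alas2 and Epb42 the GATA motif AGATAA, and Cish, a STAT5 target described below, the STAT motif TTCNNNGAA. Each line is 250 bases before to 50 after the annotated start on mouse build GRCm38.p6, read on the gene's strand, with matches on either strand in capitals.
Alas2 (chrX:150547167-150547466, plus strand): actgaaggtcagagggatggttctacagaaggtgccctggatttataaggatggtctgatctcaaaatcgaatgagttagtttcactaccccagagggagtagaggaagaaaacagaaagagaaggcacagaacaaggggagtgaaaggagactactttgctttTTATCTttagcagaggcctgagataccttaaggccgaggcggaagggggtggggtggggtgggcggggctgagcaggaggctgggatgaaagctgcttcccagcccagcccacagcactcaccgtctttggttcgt
Epb42 (chr2:121036828-121037127, minus strand): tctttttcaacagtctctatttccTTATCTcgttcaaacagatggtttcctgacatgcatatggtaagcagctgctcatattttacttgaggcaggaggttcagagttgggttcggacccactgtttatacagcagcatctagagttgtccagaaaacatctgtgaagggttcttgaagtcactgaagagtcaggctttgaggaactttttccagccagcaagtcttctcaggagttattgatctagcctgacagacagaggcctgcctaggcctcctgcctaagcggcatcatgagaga
Cish (chr9:107296409-107296708, plus strand): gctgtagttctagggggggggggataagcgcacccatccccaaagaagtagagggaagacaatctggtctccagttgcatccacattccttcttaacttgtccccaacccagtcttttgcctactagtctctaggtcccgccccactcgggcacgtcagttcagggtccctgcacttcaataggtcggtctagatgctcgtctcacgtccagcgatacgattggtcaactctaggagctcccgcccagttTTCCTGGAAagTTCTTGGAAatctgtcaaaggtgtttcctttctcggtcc
AGATAA was held by 4 of 9 windows of called erythroid genes and by 11.2% of all 32851 windows of this length. TTCNNNGAA was held by 2 of 5 windows of the called STAT, Janus kinase and SOCS genes and by 8.30% of all windows. With the motifs exchanged, AGATAA was held by 0 of those 5 windows and TTCNNNGAA by 0 of the 9 erythroid ones. Of 7 windows of type 2 helper genes called lower, 2 held AGATAA and 1 held TTCNNNGAA. These are matches of letters on the reference, not measured binding, and the bases of 129X1/SvJ in these windows were not analysed here.

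Genes of B cells were higher in 129X1/SvJ. Of 20 B cell markers listed, 18 were kept, and 13 were called higher and 1 lower (77.8%, beside 12.5% over all genes). The median difference was 0.82, and without 129X1/SvJ replicate 4 the number higher was 6. Cd72, a B cell co-receptor, read 9.44, 9.09 and 9.71 against 7.07 to 9.11 with a median of 8.00 (difference 1.38, SE 0.19, adjusted p = 9.75e-05). Ly6d, a marker of B lineage cells, read 9.47, 9.02 and 9.92 against 6.14 to 10.18, a difference of 1.38 (SE 0.18, adjusted p = 8.13e-05), and Fcrla differed by 1.01 (SE 0.13, adjusted p = 5.09e-05). The exception was Fcer2a, the low-affinity receptor for immunoglobulin E, which differed by -1.11 (SE 0.25, adjusted p = 0.00559). The rise was not against DBA/2J. The B cell score was 0.52, 0.39 and 0.95 in 129X1/SvJ and 0.36 to 0.93 in DBA/2J, and it ran from -0.71 to 0.18 in the other 3 strains. The median of the 18 genes was 0.16 against DBA/2J, 0.85 against C57BL/6J, 0.91 against Balb/c and 1.18 against A/J.

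Some B cell genes stood above DBA/2J as well. Fcrl5, an Fc receptor-like gene, read 6.26, 5.75 and 6.50 against 4.54 to 5.49 in all other arrays, and its difference from DBA/2J was 1.12 (adjusted p = 0.00169). Its neighbour Fcrl1 differed from the mean of the others by 1.37 but from DBA/2J by 0.27 (adjusted p = 0.637). Mzb1, an endoplasmic reticulum protein of antibody-secreting cells, lay above all others, with a difference of 0.95 (SE 0.16, adjusted p = 0.000667). It came from a separate list of plasma cell markers. Of the 7 kept from that list, only Mzb1 was called, 6 were not called, and the median difference was -0.06. The call of the immunoglobulin heavy chain gene Ighg3 (1.49, adjusted p = 0.0432) was lost without any 1 of 13 arrays, 129X1/SvJ replicates 1, 2 and 4 among them, with an adjusted p of up to 0.161.

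Class II antigen-presentation genes, which are expressed by B cells, dendritic cells and macrophages, split. Of 11 kept, 7 were higher and 1 lower (72.7% called, beside 12.5% over all genes), with a median difference of 0.77. H2-Ab1, the beta chain of the I-A molecule, read 11.01, 11.20 and 11.78 against 8.66 to 10.76 (difference 1.44, SE 0.19, adjusted p = 8.56e-05). H2-Eb2 read 7.47, 7.27 and 7.51 against 4.88 to 6.78 (difference 1.80, SE 0.10, adjusted p = 4.99e-09), and H2-Ob, a chain of a modulator of peptide loading, 9.53, 9.54 and 9.81 against 7.55 to 9.23 (difference 1.37, SE 0.13, adjusted p = 2.44e-06). These 3 lay above every other array and were called against DBA/2J too, by 0.94, 1.51 and 1.18. Beside the near-equal B cell scores of these strains, H2-Aa, H2-Eb1 and the invariant chain gene Cd74 differed from DBA/2J by 0.12, 0.12 and -0.01, none of them called. The call of H2-Aa against the mean of all others (0.91, adjusted p = 0.00538) was lost without 129X1/SvJ replicate 4 (adjusted p = 0.0707). Class II genes are polymorphic among strains and near-identical copies exist, so probe set levels in this region are uncertain between haplotypes.

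H2-Ea, the alpha chain of the I-E molecule, gave the sharpest split between strains. It read 4.68, 4.32 and 4.61 in 129X1/SvJ, all under the background limit, and its mean in C57BL/6J was 4.59, whereas DBA/2J had 11.65, Balb/c 10.49 and A/J 10.13. The difference was -4.68 (SE 0.20, adjusted p = 1.17e-10) against the mean of the 4, and -0.05 (adjusted p = 0.93) against C57BL/6J. Mice of the H2-b haplotype, to which C57BL/6J belongs, are known to lack H2-Ea transcripts. Other genes of the same chromosome paired 129X1/SvJ with C57BL/6J. H2-K2, a class I gene, had means of 8.82 and 8.76 in these strains and 6.65 to 6.73 in the other 3. Glo1, glyoxalase 1, which detoxifies methylglyoxal, had means of 7.63 and 7.84 against 8.86 to 9.89, and its neighbour Dnah8, an axonemal dynein, 6.56 and 6.90 against 8.40 to 9.06. The differences of Glo1 and Dnah8 from the mean of the 4 were -1.41 (SE 0.12) and -1.76 (SE 0.10), and neither was called against C57BL/6J (adjusted p = 0.403 and 0.0748). The class I gene H2-T10 was above all others instead, with 9.36, 9.15 and 8.94 against 7.14 to 8.66 (difference 1.27, SE 0.12, adjusted p = 3.53e-06).

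Several genes of the type 2 helper class were lower in 129X1/SvJ. Of 21 listed, 16 were kept, and 8 were called lower and none higher (50.0%, beside 6.85% lower over all genes). The median difference was -0.50. All 129X1/SvJ arrays lay below all others for 6 of them, beside 2.39% of all genes. Il4 itself read 7.32, 6.44 and 6.80 in 129X1/SvJ and 6.46 to 11.07 elsewhere, with a median of 9.96. The difference was -2.52 (SE 0.21, adjusted p = 8.68e-07), 5.76-fold. The overlap was with DBA/2J alone: strain means were 6.85 in 129X1/SvJ and 6.89 in DBA/2J, and 9.72, 10.29 and 10.61 in C57BL/6J, Balb/c and A/J. The adjacent kept gene Il13, whose 129X1/SvJ mean of 5.06 was under the background limit, differed by -0.91 (SE 0.14, adjusted p = 0.000394), whereas Kif3a and Rad50 of the same locus differed by 0.06 and -0.02, neither called.

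Gata3, the lineage factor of this class, read 8.18, 7.94 and 8.00 against 8.51 to 9.60, with no overlap (difference -1.18, SE 0.08, adjusted p = 2.82e-08). Il4ra, the IL-4 receptor chain, read 9.43, 9.61 and 9.31 against 9.75 to 11.92 (difference -1.71, SE 0.16, adjusted p = 2.66e-06), 3.28-fold lower. The chemokine receptors Ccr4 and Ccr8, which type 2 and regulatory T cells carry, differed by -0.84 and -1.26, and the transcription factor Nfil3 by -0.95, each with all arrays of 129X1/SvJ below all others. The 129X1/SvJ mean of Ccr8 was under the background limit. For Gata3, DBA/2J lay between 129X1/SvJ and the other strains at 8.65 (129X1/SvJ minus DBA/2J -0.61, adjusted p = 0.00108). For Il4ra the same pair differed by -0.72, which was not called (adjusted p = 0.0556).

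Some STAT and SOCS family genes were lower as well. Of 21 STAT, Janus kinase and SOCS genes kept, 6 were lower and none higher (28.6%, beside 6.85% lower over all genes) and 15 were not called. The median difference was -0.11, or -0.02 against DBA/2J alone. Cish, an inhibitor induced by STAT5 whose start region is printed above, read 6.76, 6.94 and 6.75 in 129X1/SvJ. The other arrays ran from 6.56 to 9.23 with a median of 8.69, and the difference was -1.42 (SE 0.09, adjusted p = 1.69e-08). Its mean of 6.66 in DBA/2J was the only one near that of 129X1/SvJ (129X1/SvJ minus DBA/2J 0.15, adjusted p = 0.655), and the differences from C57BL/6J, Balb/c and A/J were -1.57, -2.01 and -2.25. Socs1 differed by -1.42 (SE 0.20, adjusted p = 9.62e-05), Stat5a by -0.84 (SE 0.07, adjusted p = 1.28e-06) and Stat5b by -0.41 (SE 0.07, adjusted p = 0.00046). Against DBA/2J, Socs1 and Stat5a differed by -0.29 and -0.11, neither called. Outside this list, Bcl2l1, the gene of the survival protein Bcl-xL, had 6.51, 6.47 and 6.64 against 7.05 to 8.54. It was called against every strain (-1.10 against DBA/2J, adjusted p = 0.00259).

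**Figure D3:**
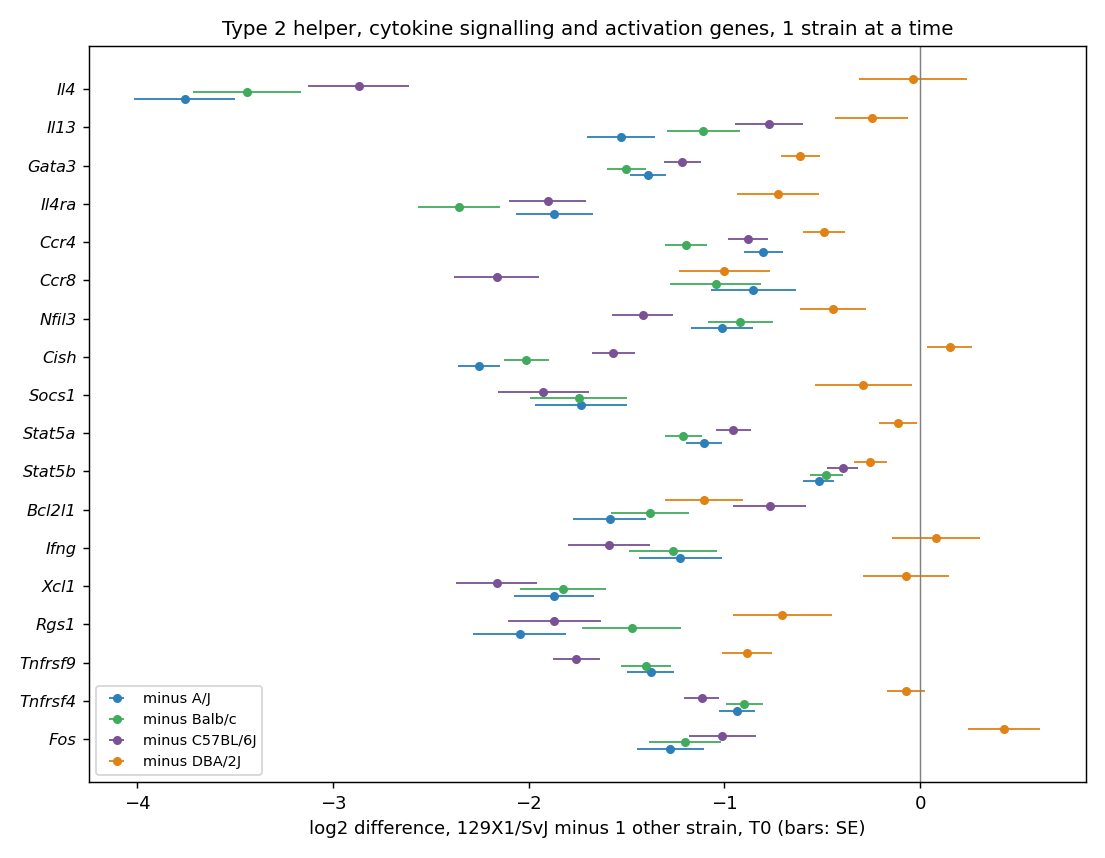
Log2 difference (x axis, bars are the SE) of 129X1/SvJ from each of the 4 other strains at T0 for 18 genes (y axis); the 4 colours are the strains subtracted, and all comparisons share the 3 arrays of 129X1/SvJ. The points for DBA/2J lie at or near 0 for Il4, Cish, Stat5a, Ifng, Xcl1 and Tnfrsf4, and left of 0 with the other strains for Gata3, Ccr4, Ccr8, Bcl2l1 and Tnfrsf9.

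Among genes of T cell activation and effector function, the directions differed between lists. Of memory and effector genes 32.0% were called, of cytokines 33.3% and of early activation genes 32.1%, beside 12.5% over all genes. Of 25 memory and effector genes kept, 6 were higher and 2 lower, with a median of 0.15. Of 21 cytokine genes kept, 7 were lower and none higher, and 4 were lower without 129X1/SvJ replicate 1 or 2 and 3 without replicate 4. Ifng read 5.63, 5.36 and 5.06 against 5.19 to 7.17 (difference -0.998, SE 0.18, adjusted p = 0.000919), at the background limit in 129X1/SvJ and in DBA/2J, whose mean was 5.27. Il2 was not among the genes kept, and Tnf was not called (difference -0.08, adjusted p = 0.83). Of 28 early activation genes, 9 were lower and none higher, with a median of -0.26, and 4 were lower without 129X1/SvJ replicate 2. Against DBA/2J alone the medians of the cytokine and early activation genes were 0.08 and 0.09. Rgs1, a brake on chemokine receptor signals, differed by -1.52 (SE 0.20, adjusted p = 6.05e-05), Fos by -0.77 and Tnfaip3, an inhibitor of NF-kappaB, by -0.63, whereas Cd69 was not called (-0.36, adjusted p = 0.25). Xcl1, a chemokine, read 5.06, 4.79 and 4.69, under the limit, with a mean of 4.92 in DBA/2J and 6.68 to 7.01 in the other 3 strains.

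The costimulatory receptor Tnfrsf9 (4-1BB) read 7.14, 7.11 and 7.30 in 129X1/SvJ and 8.03 to 9.09 in the other arrays, a difference of -1.35 (SE 0.10, adjusted p = 1.17e-07) with no overlap. Its relatives Tnfrsf4 (OX40) and Tnfrsf18 (GITR), which regulatory T cells also express, differed by -0.76 and -0.65. Foxp3, the factor that defines regulatory T cells, was not called (7.97, 7.92 and 7.61 against 7.003 to 8.57, adjusted p = 0.869). Il12rb2, a chain of the IL-12 receptor, had all 3 arrays below all others (-0.998, SE 0.16, adjusted p = 0.000402). Il18r1, a chain of the IL-18 receptor, and Id3, an inhibitor of E proteins, went the other way, by 0.62 (adjusted p = 0.00128) and 0.74 (adjusted p = 2.03e-06).

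Markers of the labelled cell type were present in every array. Cd4 read 9.42, 9.30 and 9.43 in 129X1/SvJ and 9.21 to 9.78 elsewhere, a difference of -0.02 (adjusted p = 0.911). Of 15 CD4 T cell markers kept, 2 were higher and 6 lower (53.3% called, beside 12.5% over all genes), with a median of -0.16. The T cell receptor complex genes Cd3d, Cd3e and Cd3g differed by -0.67, -0.48 and -0.38 (adjusted p = 0.00193, 0.000474 and 0.000439), Trat1, an adaptor of that complex, by -1.19, and the lymphocyte receptor Cd6 by 0.43. The score of these 15 genes was -0.11, -0.22 and -0.28 in 129X1/SvJ and -0.28 to -0.03 in DBA/2J, and it ran from -0.07 to 0.32 in the other 3 strains. The mean CD4 T cell score was thus lowest and the mean B cell score highest in 129X1/SvJ and DBA/2J, the strains low in Il4, Cish and Stat5a, although the CD4 T cell scores of DBA/2J and C57BL/6J overlapped. The part of these scores in those results was not tested. Of 20 myeloid markers, 2 were called, both higher (10.0%, beside 12.5% called over all genes). The number higher was 0 without 129X1/SvJ replicate 4, 1 without 129X1/SvJ replicate 1, 4 without DBA/2J replicate 3 and 5 without C57BL/6J replicate 3. The neutrophil score ran from -0.12 to 0.36 in 129X1/SvJ, inside the range of the others (-1.41 to 0.92). Satb1, a chromatin organiser of T cells, and Txk, a T cell kinase, lay below all other arrays by -0.54 and -0.63.

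**Figure D4:**
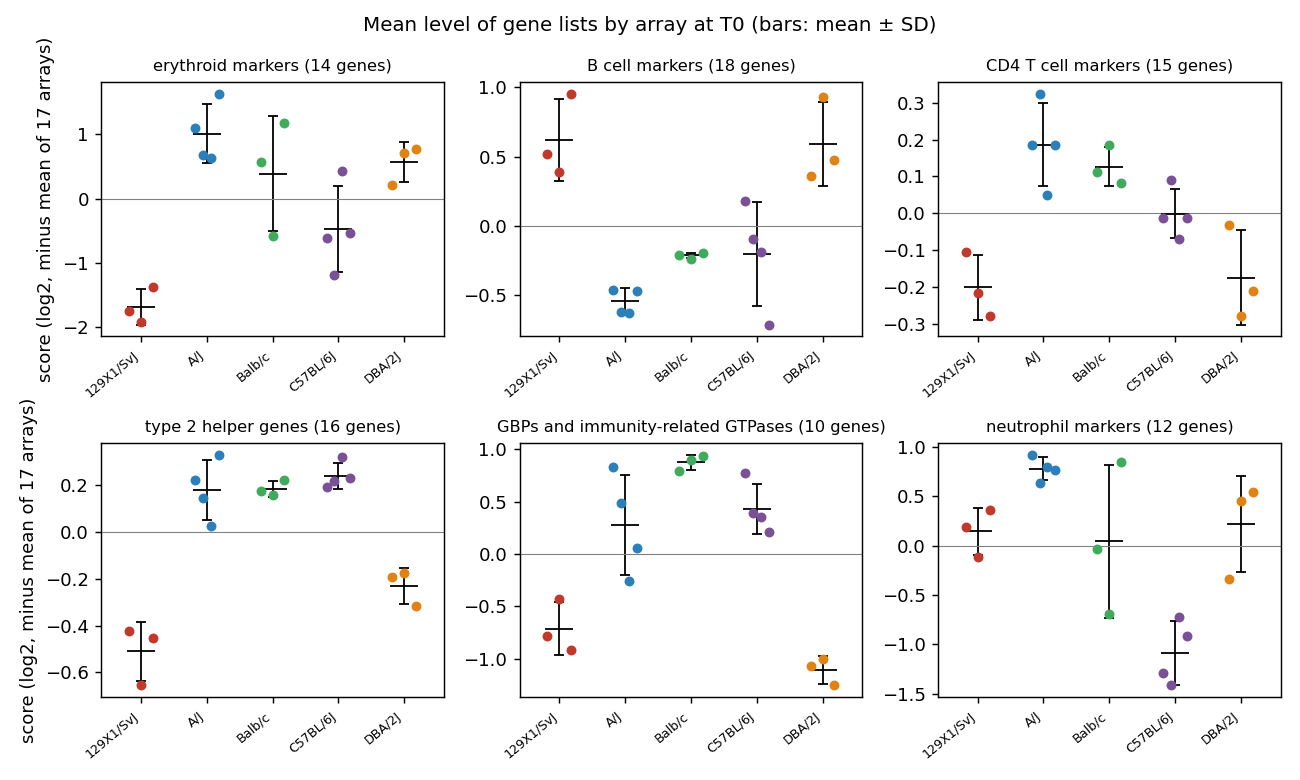
Mean log2 level of 6 gene lists in each of the 17 arrays, minus its mean over the arrays (y axis), by strain (x axis); points are arrays and black bars the mean ± SD. The 129X1/SvJ arrays are the lowest for erythroid markers (-1.91 to -1.38) and type 2 helper genes (-0.66 to -0.43), and they lie with DBA/2J for B cell markers (0.39 to 0.95).

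Called interferon-responsive genes went in both directions. Of 40 type I interferon response genes that passed the filter, 7 were higher and 4 lower (27.5% called, beside 12.5% over all genes). The median was 0.14, and 3 were higher without 129X1/SvJ replicate 2. Mx1 and Mx2, neighbouring antiviral GTPase genes, had 129X1/SvJ values of 6.00, 6.64 and 5.49 and of 6.67, 6.97 and 6.42. The other strains' means were all under the limit (4.08 to 4.91 for Mx1 and 4.75 to 4.98 for Mx2), yet single arrays of them reached 6.37 and 6.72. The differences of 1.54 (SE 0.34, adjusted p = 0.00521) and 1.82 (SE 0.43, adjusted p = 0.00891) were no longer called without 129X1/SvJ replicate 2 (adjusted p = 0.0626 and 0.0619). Ifit3 differed by 1.61 (adjusted p = 0.0161), which was lost without replicate 1 or replicate 2 of 129X1/SvJ (adjusted p of up to 0.124), and Oasl1 by 0.91 (adjusted p = 0.00155). Ly6e, a membrane protein that limits viral entry, differed by 1.00 with 129X1/SvJ, DBA/2J and C57BL/6J high (means 11.41, 11.39 and 11.22) and A/J and Balb/c low (9.30 and 9.72). Oasl2 was lower (-1.17, adjusted p = 0.000201), with a 129X1/SvJ mean under the background limit. Ube2l6, Rsad2 and Isg20, described above, were lower as well.

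Guanylate-binding proteins and immunity-related GTPases, which interferon gamma induces and which act on intracellular pathogens, were mostly lower. Of 10 kept, 8 were lower and 1 higher (90.0% called, beside 12.5% over all genes). The median was -0.80, and 5 were lower without 129X1/SvJ replicate 4. DBA/2J was lower still: the score of the 10 genes was -0.92 to -0.43 in 129X1/SvJ, -1.25 to -1.002 in DBA/2J and -0.26 to 0.93 in the other 3 strains, and the median against DBA/2J was 0.19. Gbp11 read 6.92, 7.36 and 6.74 against 7.66 to 10.09 (difference -1.82, SE 0.22, adjusted p = 3.79e-05). Iigp1 read 6.24, 6.80 and 5.79 against 6.73 to 9.13 (difference -1.93, SE 0.23, adjusted p = 2.67e-05), and Gbp5 differed by -1.30. DBA/2J was again the nearest strain for Iigp1 and Gbp5, with differences of -0.50 and 0.24, neither called. Gbp2b was the exception. Its 129X1/SvJ mean of 8.96 lay between 5.14 and 5.42 in C57BL/6J and DBA/2J and 10.41 and 10.997 in A/J and Balb/c, so that the mean difference of 0.96 describes none of the 4 pairs, and its call was lost in the fit on all 34 arrays (adjusted p = 0.163). Members of this family are near-identical in sequence, and the assignment of signal to single genes is uncertain.

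In the Ifi200 family, which includes DNA sensors, 129X1/SvJ lay between the strains. Of 10 kept, 5 were higher and none lower than the mean of the others (50.0%, beside 5.64% higher over all genes). The median was 0.73, but the median against C57BL/6J was -0.18. The family's score was 0.24 to 0.61 in 129X1/SvJ, 0.68 to 1.30 in C57BL/6J and -1.41 to -0.88 in A/J. Ifi214 read 7.76, 7.85 and 7.57 in 129X1/SvJ, whereas A/J had a mean of 3.54, under the limit, DBA/2J 7.05, Balb/c 7.08 and C57BL/6J 8.24 (difference 1.25, SE 0.15, adjusted p = 3.74e-05). Ifi209 (0.93) and Ifi203 (1.00) likewise had A/J lowest. Aim2, the sensor that starts the DNA inflammasome, was the member with all 129X1/SvJ arrays above all others, at 8.19, 8.20 and 8.28 against 7.22 to 7.93 (difference 0.66, SE 0.08, adjusted p = 2.01e-05). Among single genes of other multigene families, Klrb1f, a lectin-like receptor, read 5.27, 5.09 and 5.36 against 6.67 to 8.52 (difference -2.28, SE 0.28, adjusted p = 3.77e-05). Its 129X1/SvJ mean was under the background limit. Trim12a was called at -1.33, but through C57BL/6J alone: that mean was 9.41, against 3.82 to 3.95 in the other 4 strains.

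Some genes with large differences lay side by side. Of the 158 genes called at 1 log2 or more, 28 (17.7%) had an adjacent kept gene that was also among the 158, in 13 runs. The share expected for genes placed at random was not computed. Some runs, such as Mx1 with Mx2 and Fcrl1 with Fcrl5, were members of the same gene family. Chromosome 17, which carries the H2 complex, held 14 of them among 555 genes kept (2.52%, beside 1.41% elsewhere). Plcxd2, Cd96 and Trat1 formed a run of 3 lower genes. Cd96, a receptor of T and NK cells that binds nectin proteins, read 6.95, 6.98 and 6.97 against 7.60 to 8.26, and its difference lay between -1.09 and -0.98 against each single strain. Plcxd2 read 6.85, 6.85 and 6.65 against 7.65 to 8.76 (difference -1.30, SE 0.08, adjusted p = 1.08e-08). Pole2, a DNA polymerase epsilon subunit, and Klhdc1 were lower by -1.28 and -1.06, with their neighbour Klhdc2 by -0.79. A further run mixed directions: Pgpep1l and Fam169b were lower (-1.35 and -1.55) beside Arrdc4, an arrestin-like gene, which was higher (1.13), each with no overlap. Gpr137b-ps and Gpr137b, a pseudogene and its parent, also went opposite ways (-1.06 and 1.11), and signal cannot be divided between such copies with certainty. Mid1, a microtubule-associated ubiquitin ligase of the X chromosome, read 6.22, 6.46 and 6.34 against 6.71 to 10.04, where Balb/c at 9.99 stood apart from the other means. Ddx43, an RNA helicase, was under the limit at 3.65, 3.70 and 3.59 in 129X1/SvJ, with a mean of 6.78 in DBA/2J.

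The nearest strain, the one of the 4 whose mean was closest to that of 129X1/SvJ, was DBA/2J for 696 of the 1351 called genes, C57BL/6J for 350, A/J for 158 and Balb/c for 147. Among the 158 genes of at least 1 log2 it was C57BL/6J for 73 and DBA/2J for 59, and A/J and Balb/c for 14 and 12. These counts describe order only, with no test. The same contrast at T1, on different arrays, called 738 genes (6.82%). That number was 226 to 338 without 1 of the 3 stimulated 129X1/SvJ arrays (226 without replicate 4, 336 without replicate 2, 338 without replicate 1) and 1168 when replicate 2 of stimulated Balb/c was left out. Of the 1351 genes called at T0, 1137 had the same sign at T1. Among the 1351, 343 (25.4%) were called in the same direction at T1 and 9 in the opposite one. Of the 158 large differences, 148 had the same sign at T1, and 92 (58.2%) were called in the same direction and 0 in the opposite one. The difference of the contrast between T1 and T0 was itself tested on all 34 arrays. It was called for 219 genes (2.02%), and for 167 (12.4%) of the 1351 genes called at T0. With strain and replicate number as a block it was called for 380 genes. The block was fitted since the cells of a culture were divided between T0 and T1.

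After stimulation, 12 of the 14 erythroid genes were called lower, as at T0, beside 395 lower of all 10825 genes at T1. At T1 the difference was -5.00 for Alas2, -3.87 for Slc4a1, -4.67 for H2-Ea and -1.69 for Fam169b, and their differences between T1 and T0 were not called. Among the H2 genes, H2-Eb2, H2-Ob, H2-Ab1 and H2-K2 were called higher at T1 too (1.13, 1.01, 0.69 and 0.79). H2-T10, H2-Aa and H2-Eb1 were not called at T1 (adjusted p = 0.098, 0.071 and 0.212). The change between T1 and T0 was called, among these genes, only for H2-Eb2 (-0.67) and H2-K2 (-0.82), so no change is shown for H2-T10, H2-Aa and H2-Eb1. Gdpd3 stood at 9.50 at T1 and BC018473 at 10.79, against strain means of 3.81 to 4.08 and 3.87 to 4.25, which were under the background limit as at T0. Wls differed by more at T1, by 3.02 (change 1.25, adjusted p = 5.77e-05).

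Several differences of type 2 helper, STAT and SOCS genes and of Bcl2l1 were smaller at T1. Most of these genes were named by their T0 differences, a choice that favours smaller differences at T1. Il4 was at 10.65 in stimulated 129X1/SvJ cells, against strain means of 10.80 to 11.79, and its difference of -0.58 was not called (adjusted p = 0.086). The change of the difference was 1.95 (adjusted p = 0.000306). The contrast was 0.21 for Cish, -0.06 for Socs1, 0.28 for Stat5a, -0.34 for Il4ra and -0.17 for Bcl2l1 at T1, none of them called, and each changed from T0 with a call (adjusted p = 2.27e-07 for Cish and 0.00594 for Bcl2l1). Gata3 (-0.47, adjusted p = 0.015), Ccr4 (-0.50) and Ccr8 (-0.67) were called lower at T1 too. Klrb1f and Prkag2 lost their difference, with -0.21 and 0.16 at T1, and Ifng was at 11.42 in 129X1/SvJ and 11.29 to 11.48 in the others.

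**Figure D5:**
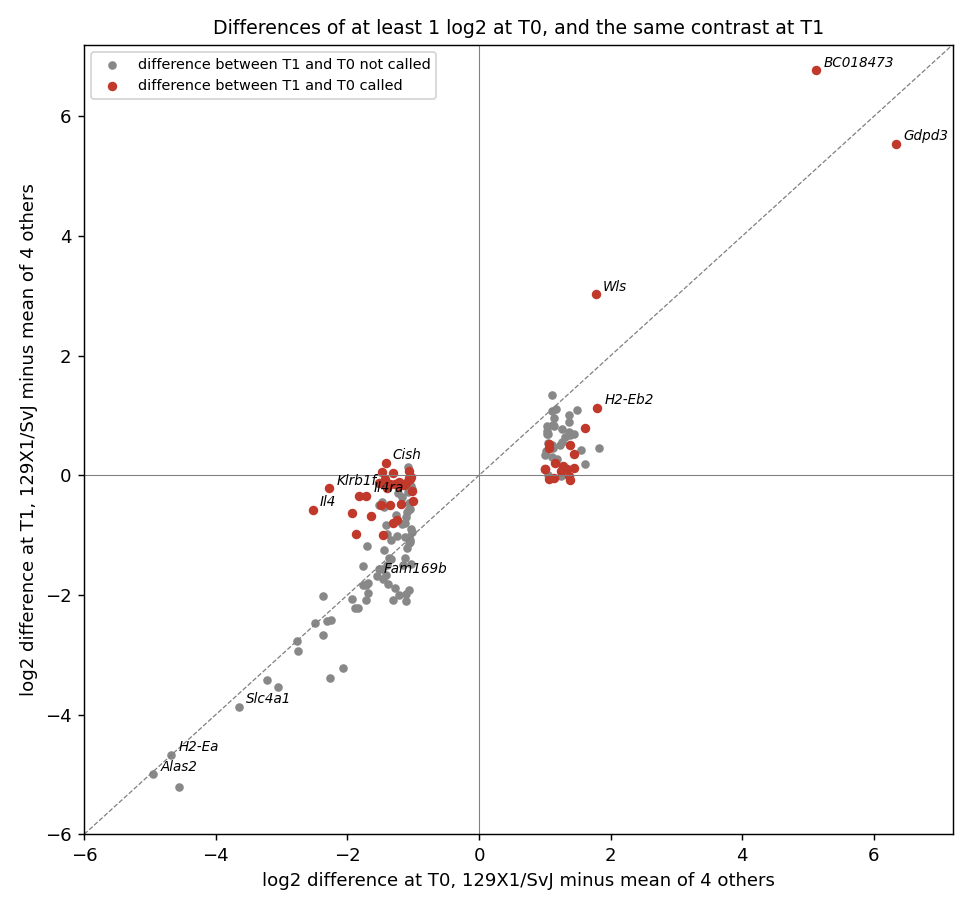
The 158 genes called with a difference of at least 1 log2 at T0, by their log2 difference (129X1/SvJ minus the mean of the 4 others) at T0 on the x axis and at T1 on the y axis; the dashed line marks equal differences, and red points are genes whose difference between T1 and T0 was called. H2-Ea, Alas2 and Slc4a1 lie on or near the line, Wls above it, and Il4, Cish, Il4ra and Klrb1f near 0 at T1.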

How the data were processed

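The deposited table holds log2 values of 35556 Affymetrix probe sets, made by the authors with RMA per the submitters' processing notes; for its version and the annotation build the labels say nothing. Of the probe sets, 21789 had 1 gene symbol, 1621 several and 12146 none, and 21698 gene IDs were found in the RefSeq table (GRCm38.p6), used for names and gene order. Each of 19938 genes was represented by 1 probe set, the brightest on average across the 34 arrays (999 genes had more than 1). Genes whose highest T0 strain mean was under 5.3235 (9113) were left out. T0 array medians were 5.28 to 5.36.

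limma 3.58.1 in R 4.3.3 fitted 5 strain means to the 17 T0 arrays, with eBayes and Benjamini-Hochberg adjustment over 10825 genes, and the script was tested on simulated data. Scores are list means per array. Genes were named by a rule: the largest called differences with and without overlap, up to 4 called members of each list by moderated t, members against their list, neighbours in runs, and Cd4, Foxp3, Il2, Ifng, Tnf, Il4, Cd69, Gdpd3, H2-Ea and Alas2. The comparison, members and lists were chosen with earlier results of these data known. Alternatives covered the arrays fitted, filter, probe sets, normalization, moderation, weights, replicate block and each array left out. The number of arrays limits the precision.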

Additional observations from a re-analysis of the deposited data

Results flagged for a closer look

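For 43 of 121 genes (those named, apart from neighbours given for comparison), the difference of 129X1/SvJ from the mean of the 4 other strain means was not the same with and without stimulation by the test of that difference itself (limma on 34 arrays, adjusted p under 0.05). Over all 10825 genes the same test called 2.02%, and over the genes called at T0 it called 12.4%. Most of the 121 genes were named by their T0 differences, and the change uses the same T0 values. That choice favours smaller differences at T1, so the 43 are a description of the named genes only. Each value is the log2 difference at T1 minus that at T0. A value of opposite sign to the T0 difference means that the strains lay closer after stimulation. For Gdpd3 and BC018473 the other strains were under the background limit of 5.32 at both times, so the size of their change is not shown above background. Among single genes high in 129X1/SvJ the change was -0.80 for Gdpd3, 1.65 for BC018473, -1.31 for St6galnac1, 1.25 for Wls, -0.88 for Rcbtb2, -1.09 for Dnajc15, -1.12 for Prkag2, -0.75 for Id3, -0.93 for Il9r and -0.999 for Il18r1. Among genes of the H2 complex and B cells the change was -0.67 for H2-Eb2, -0.82 for H2-K2, -1.46 for Ly6d and -0.91 for Fcrla. Among type 2 helper, STAT and survival genes the change was 1.95 for Il4, 0.71 for Gata3, 1.37 for Il4ra, 1.08 for Nfil3, 1.63 for Cish, 1.36 for Socs1, 1.12 for Stat5a, 0.38 for Stat5b and 1.04 for Bcl2l1. Among activation genes, cytokines and their receptors the change was 1.39 for Rgs1, 0.86 for Tnfrsf9, 0.99 for Xcl1, 0.85 for Fos, 0.82 for Tnfaip3, 1.00 for Ifng and 0.95 for Il12rb2. Among T cell genes the change was -0.60 for Cd6, 0.51 for Plcxd2 and 0.37 for Satb1. Among interferon-responsive genes and GTPases the change was -0.90 for Ly6e, 1.48 for Gbp11, 1.33 for Gbp5 and 1.31 for Iigp1. Among the remaining genes the change was 2.06 for Klrb1f, 1.15 for Pole2, 1.13 for Klhdc1, 1.04 for Klhdc2, 1.20 for Pgpep1l and 0.88 for Ddx43.

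In 8 of 242 groups of 4 unstimulated arrays, 1 array lay far from the other 3 by Dixon's criterion, where chance gives about 1 in 20 groups. In C57BL/6J these were H2-T10 in replicate 1 (8.66), Fcrla in replicate 4 (6.74), Tnf in replicate 1 (7.21), Ifi209 in replicate 1 (10.45), Mid1 in replicate 3 (8.38), Hmgcs1 in replicate 2 (8.57) and Utp20 in replicate 4 (7.32). In A/J it was Fcrla in replicate 1 (6.999). Groups of 3 arrays, 129X1/SvJ among them, were not tested.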

How the results depend on the processing

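Of 117 called genes named, 104 were called under every alternative that kept them: 94 under all 26 (17 that leave out 1 T0 array and 9 others) and 10 under all but the stricter filter, which leaves them out. Another 13 lost the call in at least 1 and 0 changed sign; 13 of 44 list medians changed sign under some alternative. The number of T0 calls was 829 to 1358 when 1 array was left out, with 316 to 620 higher and 412 to 768 lower. The number called against DBA/2J was then 364 to 574, and that at T1 226 to 1168. The T1 count was 1274 in the fit on all 34 arrays. With the replicate block, 921 genes in place of 610 were higher at T0, 1764 were called against Balb/c (1172 of the 1173 among them), 837 against DBA/2J (522 of the 554), and 380 for the difference between T1 and T0 (all 219 among them). The labels do not say that a number marks a shared batch. Same-numbered arrays of different strains had deviations from their strain means correlated at -0.01 to 0.565 (median 0.335, 25 of 27 pairs over 0.1). Different-numbered ones had a median of -0.262 (28 of 88 over 0.1). Deviations sum to 0 within a strain, so positive same-numbered values push the different-numbered ones down, and the latter are no separate comparison. The same-numbered values are a hint from the data and not the design. The other T0 counts were 1074 with all 34 arrays, 1461 after centring, 1614 after repeated quantile normalization, 1185 with no filter and 1969 with the block. Genes with a mean under 5.32 in 129X1/SvJ have no fold here, as their level above background is not shown.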

Other observations

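Some genes of cholesterol synthesis were higher in 129X1/SvJ by small amounts. Of 18 kept, 5 were higher, 1 lower and 12 not called at T0 (33.3% called, beside 12.5% over all genes). The number higher was 3 without 129X1/SvJ replicate 4, and the median difference of the list was 0.20. The score of the list was 0.12 to 0.29 in 129X1/SvJ and reached 0.16 in DBA/2J. At T1, 10 of the 18 genes were higher, beside 343 higher of all 10825 genes, and the median of the list was 0.45. Hmgcs1, which makes the precursor of mevalonate, read 9.14, 9.02 and 9.09 against 8.37 to 8.82 (difference 0.53, SE 0.07, adjusted p = 5.09e-05), and Msmo1, a sterol oxidase, 9.34, 9.35 and 9.48 against 8.58 to 9.32 (difference 0.47, SE 0.08, adjusted p = 0.000817). All 3 arrays lay above all others in both. Idi1, an isomerase of the same pathway, differed by 0.48 and lost its call without 129X1/SvJ replicate 4 (adjusted p = 0.0727). The cholesterol exporter Abcg1 differed by -0.29 (adjusted p = 0.0212), and its call was lost without 129X1/SvJ replicate 1 or 2, after centring and in the fit on 34 arrays (adjusted p of up to 0.253).

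Minorities of the ribosome biogenesis and proliferation genes were called, and both counts rested on single 129X1/SvJ arrays. Of 26 ribosome biogenesis genes, 8 were higher and none lower (30.8%, beside 5.64% higher over all genes), with a median of 0.18. The number higher was 3 without replicate 1 and 0 without replicate 4. Polr1b, a subunit of RNA polymerase I, differed by 0.42, Rrp1b by 0.52 and Utp20 by 0.37, and each lost its call without replicate 4 (adjusted p = 0.119, 0.0782 and 0.135). Wdr74 differed by 0.31, a call that was lost without replicate 1 or 4 (adjusted p = 0.0665 and 0.0553) and in the fit on 34 arrays (adjusted p = 0.137). Of 28 proliferation genes, 7 were lower and none higher, with a median of -0.31; the number was 3 without replicate 4 and 1 without replicate 2. Ube2c, a ubiquitin-conjugating enzyme of mitosis, differed by -0.72 (SE 0.16, adjusted p = 0.00518). A/J was highest and C57BL/6J lowest of its 4 other means, as for the mean erythroid score.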
